A study of Rattus norvegicus with 32 samples.

Results

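The genes described here are 9 genes of glucose production and of the fasting response of the liver: the enzymes Pcx, Pck1, Fbp1 and G6pc, the transporter Slc37a4, the regulators Ppargc1a, Foxo1 and Creb3l3, and the insulin signalling adaptor Irs2. They were taken by symbol from the 32883 Ensembl genes of a table of FPKM, from sequencing of polyadenylated RNA. FPKM is a level scaled for gene length and for a size set for each library. Of the 9, 8 were listed under these symbols, and Pcx was listed as Pc, its current symbol. The livers came from male rats of the inbred strain Lewis. The study is of grafts with macrosteatosis, in which hepatocytes hold fat as large droplets. Its samples are 8 long-term survivor, 12 post-transplant and 12 pre-transplant ones, of which 8, 11 and 11 libraries could be tied to their group. Fat content, treatment, age, time of sampling and batch are not in the labels, nor is whether donors, recipients or both carried fat in each group. Since no label ties a library to an animal of its own, a p-value here reflects only how these samples scatter, and that scatter may be technical.

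The liver releases glucose between meals by breaking down glycogen and by gluconeogenesis, the making of glucose from lactate, amino acids and glycerol. Glucagon, through cAMP, and glucocorticoids raise transcription of the rate-setting enzymes, with PGC-1alpha, the product of Ppargc1a, and FOXO1 as nuclear mediators. Insulin acts through IRS2 and AKT to move FOXO1 out of the nucleus and so lowers the same genes.

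All 9 genes passed the filter of at least 1 FPKM in at least 8 libraries, which left 11924 genes to test, and 8 of them had at least 1 FPKM in all 30 libraries. Ppargc1a did so in 16. On the FPKM scale, which is per length, the mean level over the 30 libraries spanned the range from abundant enzymes to scarce regulators. Pck1 (phosphoenolpyruvate carboxykinase, which makes phosphoenolpyruvate from oxaloacetate in the cytosol) averaged 763 FPKM and ranked 85 among the 11924 genes. Fbp1 (fructose bisphosphatase) averaged 381 FPKM and ranked 176. Creb3l3, a transcription factor held in the endoplasmic reticulum membrane until it is cut and released, averaged 169.5 FPKM and ranked 412. G6pc, the catalytic subunit of glucose-6-phosphatase, averaged 122 FPKM. Pcx (pyruvate carboxylase, which makes oxaloacetate in mitochondria) averaged 85.9 FPKM and Slc37a4, which carries glucose-6-phosphate into the endoplasmic reticulum for that phosphatase, 74.8 FPKM. Foxo1 and Irs2 averaged 6.97 and 5.64 FPKM, and Ppargc1a 1.39 FPKM with a rank of 10772.

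In the deposited annotation, whose coordinates are given here on Rnor_6.0, Pck1 (ENSRNOG00000028616) lies on chromosome 3 from 171213936 to 171219871, and G6pc (ENSRNOG00000051171) on chromosome 10 from 89285855 to 89296213, both on the plus strand. Slc37a4 (ENSRNOG00000011361) lies on chromosome 8 from 48716939 to 48723024 and Creb3l3 (ENSRNOG00000032202) on chromosome 7 from 11490852 to 11499282, both on the plus strand. Pcx (ENSRNOG00000019372) lies on chromosome 1 from 219759183 to 219859848, and Fbp1 (ENSRNOG00000017597) on chromosome 17 from 396180 to 417480 on the minus strand. Ppargc1a (ENSRNOG00000004473) lies on chromosome 14 from 63095720 to 63187009, Foxo1 (ENSRNOG00000013397) on chromosome 2 from 141451234 to 141527016 and Irs2 (ENSRNOG00000023509) on chromosome 16 from 83824430 to 83848684. Every value is summed over a whole gene, so it does not tell exons or transcripts apart.

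RefSeq promoter windows, 250 bases before to 50 after the start on build GRCr8, were at hand for 7 of the 9 genes (not Pcx and Irs2). They were searched on both strands for TGACG, the core of the cAMP response element, its full palindrome TGACGTCA, which holds that core on each strand, the forkhead motif GTAAACA, the insulin response element CAAAACA, the HNF4 repeat CAAAGTCCA and the glucocorticoid response element. Shown are the windows of 3 genes that were lower after transplantation, Slc37a4 (chr8:53619775-53620074), Creb3l3 (chr7:9273070-9273369) and G6pc (chr10:86807409-86807708), of Pck1 (chr3:182348322-182348621), a classical target of the same hormones that was not called, and of Ppargc1a (chr14:63634058-63634357), the cAMP-driven coactivator. All are on the plus strand, written 5′ to 3′, with the matches in capitals.
Slc37a4: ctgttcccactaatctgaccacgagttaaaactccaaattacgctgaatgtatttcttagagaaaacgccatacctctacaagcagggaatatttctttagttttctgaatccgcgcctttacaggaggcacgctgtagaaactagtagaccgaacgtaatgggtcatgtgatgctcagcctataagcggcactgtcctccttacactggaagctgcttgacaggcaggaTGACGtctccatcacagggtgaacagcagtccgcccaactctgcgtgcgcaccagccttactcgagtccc
Creb3l3: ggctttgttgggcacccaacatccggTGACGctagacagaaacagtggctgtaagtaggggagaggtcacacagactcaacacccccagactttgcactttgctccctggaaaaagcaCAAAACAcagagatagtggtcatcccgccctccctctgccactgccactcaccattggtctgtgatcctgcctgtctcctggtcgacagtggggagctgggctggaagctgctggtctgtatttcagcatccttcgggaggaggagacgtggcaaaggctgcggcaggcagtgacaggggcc
G6pc: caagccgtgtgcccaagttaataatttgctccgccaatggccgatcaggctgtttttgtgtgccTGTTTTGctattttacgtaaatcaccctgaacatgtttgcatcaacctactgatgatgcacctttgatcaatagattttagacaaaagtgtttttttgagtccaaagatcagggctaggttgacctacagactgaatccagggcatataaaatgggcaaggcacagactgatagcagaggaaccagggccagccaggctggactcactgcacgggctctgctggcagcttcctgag
Pck1: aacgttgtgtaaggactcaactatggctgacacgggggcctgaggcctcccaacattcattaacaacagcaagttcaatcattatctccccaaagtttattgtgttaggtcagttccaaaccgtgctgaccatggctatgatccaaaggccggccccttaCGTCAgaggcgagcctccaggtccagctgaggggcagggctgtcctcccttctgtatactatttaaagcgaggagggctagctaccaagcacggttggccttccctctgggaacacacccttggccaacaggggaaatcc
Ppargc1a: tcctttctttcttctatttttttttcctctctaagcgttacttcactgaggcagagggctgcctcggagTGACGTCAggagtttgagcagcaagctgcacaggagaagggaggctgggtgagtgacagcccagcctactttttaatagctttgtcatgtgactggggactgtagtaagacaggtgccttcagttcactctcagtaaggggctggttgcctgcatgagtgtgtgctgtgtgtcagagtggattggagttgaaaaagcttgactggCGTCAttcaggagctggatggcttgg
The window of Pck1 held the core TGACG on the minus strand, written CGTCA, from -90 to -86 relative to the start. The window of Ppargc1a held the full palindrome from -181 to -174 and 1 more core on the minus strand from 25 to 29. The window shown for Slc37a4 held the core from -20 to -16. RefSeq lists a second, overlapping Slc37a4 window, not printed, with a core from -203 to -199, which is the same stretch of bases, and another, on the minus strand, from -74 to -70. The window of Creb3l3 held the core from -224 to -220. The insulin response element was found in Creb3l3 from -132 to -126 and, on the minus strand and written TGTTTTG, in G6pc from -186 to -180. The windows of Fbp1 and Foxo1 held none of the motifs. Of all 33469 windows of this length, 21.2% held the core, 1.83% the palindrome, 6.28% the insulin response element, 3.78% the forkhead motif, 0.391% the HNF4 repeat and 0.0149% the glucocorticoid response element. These matches describe letters and say nothing of binding in these livers.

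Reads assigned to Ensembl genes numbered 17401155 to 18482059 in long-term survivor, 15802817 to 18464388 in post-transplant and 15372950 to 19311664 in pre-transplant libraries. The library size that the FPKM imply was, in the same order, 0.951 to 1.173, 0.783 to 1.410 and 0.839 to 1.216 times these reads. It was below the assigned reads in some libraries, so FPKM levels and marker sums rest on a scaling between libraries beyond read totals. The long-term survivor columns differed from the rest in a trace of their processing: of the values of unannotated genes, 3.17% to 5.05% came out as whole reads there, against 100% in every other library. Processing and group therefore cannot be told apart in comparisons with them. The median change of all tested genes was -0.17 (log2) in long-term survivor against pre-transplant livers, -0.16 against post-transplant livers and -0.03 in post- against pre-transplant livers. Among the long-term survivor libraries, replicate 3 was nearly identical to replicate 7, and replicate 4 to replicate 8 (chi-square of their reads, divided by its degrees of freedom, 3.23 and 3.51, against 25.99 to 399.3 for the 136 other within-group pairs). The largest difference over the 9 genes was 0.117 and 0.118 (log2) within these pairs and at least 0.524 within each other pair, and the labels do not say whether they are separate livers. Pre-transplant library u2, 1 of a pair of columns under the same header, had the lowest FPKM of the pre-transplant group in Pck1, G6pc, Fbp1, Pcx, Slc37a4 and Creb3l3, together with its lowest hepatocyte and highest leukocyte marker sums (51770 and 141.9 FPKM). Its library size was 1.216 times its reads, the highest ratio of that group, which lowers every FPKM in it. Per assigned read it was the lowest in Pck1, G6pc and Creb3l3, but not in Fbp1, Pcx and Slc37a4. Reads of Slc37a4 numbered 2219 in u2 and 1929 in replicate 1. The hepatocyte marker sum rests on the same scaling.

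The first comparison asked how grafts differed after and before transplantation. RNA of Slc37a4 and G6pc, which act between glucose-6-phosphate and free glucose, was lower after transplantation. So was RNA of Pcx, the entry enzyme from pyruvate, while Pck1 was not called. Of the 9 genes 5 fell and 0 rose in post- against pre-transplant livers (limma, adjusted p at most 0.05 over all genes), beside 50.0% of all tested genes called, 26.6% lower and 23.4% higher. The median change of the 9 genes was -0.45, against -0.03 over all genes. The libraries of the groups overlapped for every one of the 9 genes, as they did for all but 3.94% of the 11924 tested genes.

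Slc37a4 had the greatest fall. It lay at 20.7, 33.3 and 68.9 FPKM (lowest, median and highest) in post-transplant livers, against 51.9, 129 and 155 FPKM in pre-transplant livers. All 11 post-transplant libraries were below the pre-transplant median, 7 of them below the lowest pre-transplant library. The log2 fold change was -1.44 ± 0.22 (SE), 2.71-fold lower, with an adjusted p of 5.31e-06. G6pc, its partner in the last step of glucose release, averaged 68.6 ± 45.9 FPKM in post-transplant and 148 ± 101.5 FPKM in pre-transplant livers (SD, n = 11 each). Its values ran from 11.9 over a median of 69.2 to 158 FPKM in post-transplant livers, against 19.2, 130.3 and 390.5 FPKM in pre-transplant livers. G6pc was the most scattered of the enzymes: 10 of 11 post-transplant libraries lay under the pre-transplant median, but only 1 lay under the lowest pre-transplant library. It fell by 1.11 ± 0.41 (log2, adjusted p = 0.0244). Without post-transplant replicate 10 or 11 or pre-transplant replicate 3 it was no longer called (-0.90, -0.98 and -0.94, adjusted p = 0.0544, 0.0503 and 0.0523), and over all single libraries left out its adjusted p ran from 0.0025 to 0.0544.

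Pcx, which feeds pyruvate carbon into the pathway, lay at 30.4, 63.9 and 85.4 FPKM in post-transplant livers, against 67.0, 137 and 176 FPKM in pre-transplant livers. In 10 of 11 pre-transplant libraries Pcx was above every post-transplant library. The log2 fold change was -0.99 ± 0.18, 1.99-fold lower (adjusted p = 5.29e-05). Fbp1, which acts midway along the pathway, fell less, by 0.45 ± 0.15 (log2, adjusted p = 0.0161). It averaged 319 ± 95.9 FPKM in post-transplant and 425 ± 85.6 FPKM in pre-transplant livers, and 3 of 11 post-transplant libraries lay under the lowest pre-transplant one. After quantile normalization the changes of G6pc (-0.84, adjusted p = 0.0800) and Fbp1 (-0.08, adjusted p = 0.594) were not called, and the fall of Creb3l3, given next, was smaller at -0.36 (adjusted p = 0.00538).

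Pck1 averaged 685 ± 352 FPKM in post-transplant and 686 ± 338.5 FPKM in pre-transplant livers. Its values ran from 309 over a median of 550 to 1283 FPKM in post-transplant livers, against 83.6, 703 and 1460 FPKM in pre-transplant livers. The log2 fold change was 0.07 with a 95% interval from -0.60 to 0.73 (adjusted p = 0.882), so that a change of the size seen for Fbp1 in either direction lies inside it. Without pre-transplant u2 the estimate was -0.21 (adjusted p = 0.491).

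Among the regulators, Creb3l3 lay at 85.2, 131 and 182 FPKM in post-transplant livers, against 115, 227 and 308 FPKM in pre-transplant livers. Creb3l3 encodes CREBH, which in mouse drives Fgf21 and apolipoprotein genes during fasting. As for Pcx, 10 of 11 pre-transplant libraries were above every post-transplant library. It fell by 0.81 ± 0.13 (log2, adjusted p = 1.12e-05). Foxo1 lay at 3.15, 5.60 and 14.7 FPKM in post-transplant livers, against 4.39, 7.67 and 9.96 FPKM in pre-transplant livers. In 10 of 11 post-transplant libraries Foxo1 was under the pre-transplant median, and replicate 5, at 14.7 FPKM, was above all pre-transplant libraries. Its change of -0.26 ± 0.19 was not called (adjusted p = 0.249). Ppargc1a lay at 0.417, 1.10 and 7.41 FPKM in post-transplant livers, against 0.549, 0.861 and 2.06 FPKM in pre-transplant livers. Its reads numbered 18 to 259 per post-transplant library and at least 23 per pre-transplant library, and its change of 0.20 ± 0.21 was not called (adjusted p = 0.459). Post-transplant replicate 5 held the group's highest FPKM of Ppargc1a, Foxo1, Pck1, Fbp1 and Slc37a4, together with its highest hepatocyte marker sum (85270 FPKM). Its library size was 0.783 times its assigned reads, the lowest ratio of the 30 libraries, which raises every FPKM in it. Per assigned read it was the highest of the group in Ppargc1a and Foxo1, but not in Pck1, Fbp1 and Slc37a4. Reads of Slc37a4 numbered 1887 in it and 2417 in replicate 9. The marker sum rests on the same scaling. Irs2 lay at 3.48, 7.43 and 12.4 FPKM in post-transplant livers, against 1.72, 4.32 and 12.6 FPKM in pre-transplant livers. It was above the pre-transplant median in 9 of 11 post-transplant libraries. Its change of 0.52 ± 0.24 was not called (adjusted p = 0.0690), while adjusted p was 0.0157 without pre-transplant replicate 3, 0.0190 without pre-transplant replicate 2 and 0.0351 without post-transplant replicate 9. Over all single libraries left out it ran from 0.0157 to 0.139.

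**Figure D1:**
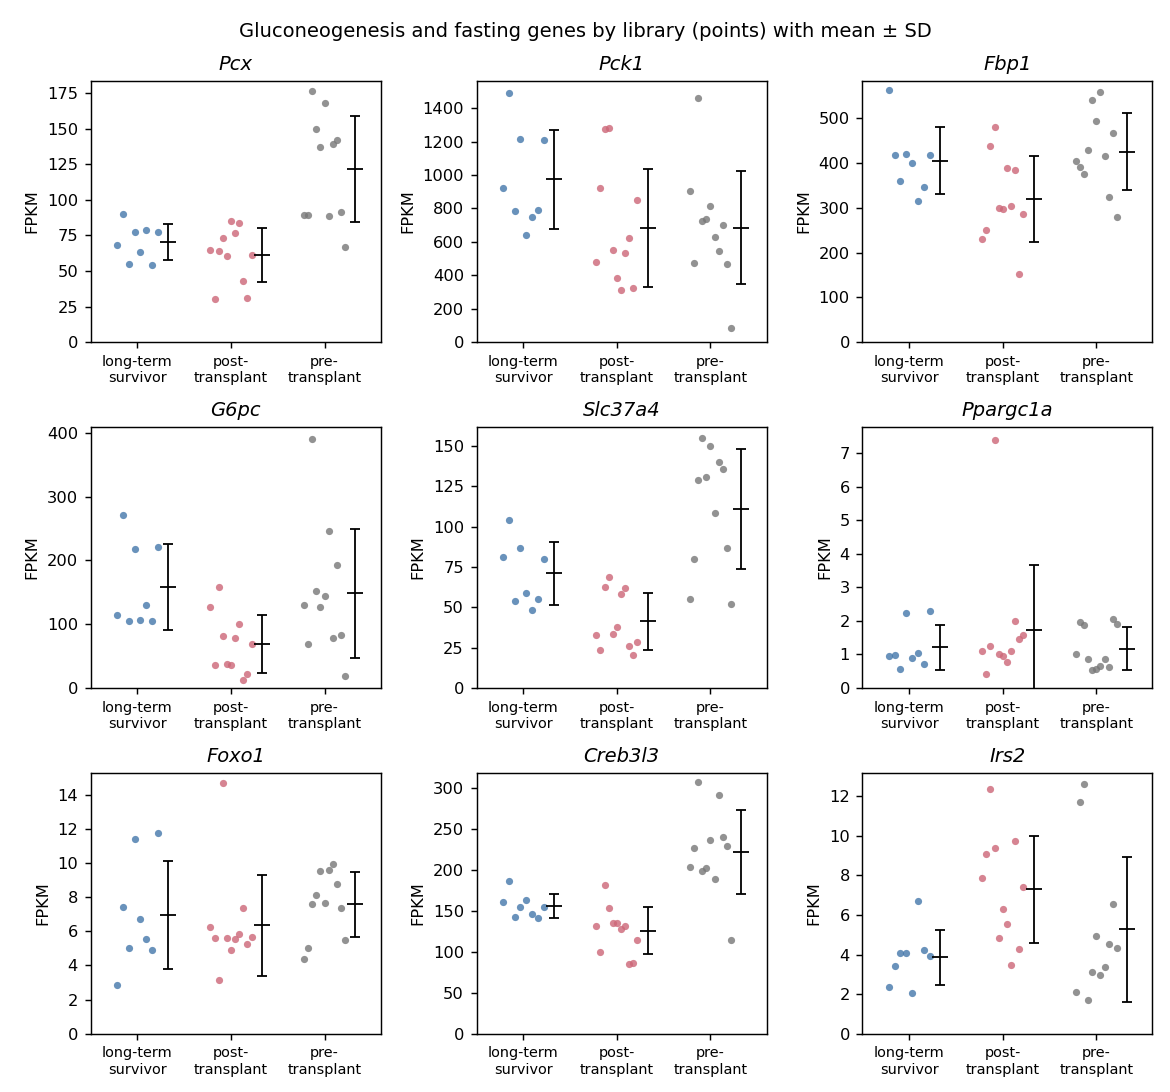
Level of each of the 9 genes in FPKM (vertical axes, linear from 0) in the long-term survivor (n = 8), post-transplant (n = 11) and pre-transplant (n = 11) groups. Points are libraries, bars are mean ± SD, and the lower bar of Ppargc1a in post-transplant livers ends at the axis. The pre-transplant points of Slc37a4, Pcx and Creb3l3 lie mostly above the post-transplant points, while the points of Pck1 in these 2 groups overlap widely. For Foxo1, 10 of 11 post-transplant points lie under the pre-transplant median.

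The sample titles run in blocks of pre- and post-transplant numbers, which the labels do not call batches, and 3 blocks held libraries of both groups. Within these blocks, titles 2 to 7 (2 post- and 3 pre-transplant libraries), 8 to 13 and 21 to 26 (3 and 3 each), the differences in mean log2(FPKM + 1), post- minus pre-transplant, kept 1 sign for each gene called. They were -1.55, -1.45 and -2.31 for Slc37a4 and -1.31, -1.19 and -1.45 for Pcx. For Creb3l3 they were -1.07, -0.44 and -1.31, and for G6pc -1.17, -0.84 and -2.52. Fbp1 differed by -0.69, -0.29 and -0.72. Pck1 had mixed signs, with differences of -0.36, 0.35 and -0.16, and Irs2 was at 0.21, 1.20 and 0.77. With the block as a further term, in a fit without the 2 pre-transplant libraries that carry no number, Irs2 was called at 0.77 (adjusted p = 0.0315; 0.0315 to 0.120 over all settings other than leaving out 1 library).

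Markers of other cell types moved with these falls. The 8 hepatocyte markers summed to 25190, 42050 and 85270 FPKM (lowest, median and highest) in post-transplant livers, against 51770, 89990 and 111100 FPKM in pre-transplant livers. Of the 8, 1 rose and 4 fell, and their median change was -0.71. Alb had the highest median of the 8, with 20740 FPKM in post-transplant and 51320 FPKM in pre-transplant livers. The changes (log2) were -1.23 for Alb, -2.08 for Ttr, -1.19 for Apoh and -1.24 for Rbp4. They were -0.23 for Apoa1, -0.07 for Tf, 0.18 for Apob and 1.23 for Fgb. The 7 leukocyte markers matched of 8 summed to 181.5, 752 and 2271 FPKM in post-transplant livers, against 27.6, 30.9 and 142 FPKM in pre-transplant livers, and all 5 that could be tested rose. The 7 stellate cell and fibroblast markers matched summed to 85.9, 202 and 560 FPKM in post-transplant livers, against 32.5, 55.8 and 84.7 FPKM in pre-transplant livers, and 6 of 7 rose. Over all tested genes 23.4% were higher and 26.6% lower. Kidney, the other main site of gluconeogenesis, had its 5 tubule markers at a sum of 0.499 to 1.51 FPKM in post-transplant and 1.07 to 2.09 FPKM in pre-transplant livers, and the medians of Umod, Slc34a1 and Aqp2 were 0 in every group. Most of the sum was Lrp2, with medians of 0.828 FPKM in post-transplant and 1.82 FPKM in pre-transplant livers. Lrp2 was the 1 kidney marker tested and was called lower (-0.57). In these bulk samples fewer hepatocytes, less RNA per hepatocyte and changes of single genes within hepatocytes cannot be told apart. The part of the other cell types in the changes was not tested.

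The second question was how long-term survivor livers compared with the other groups. Slc37a4 and G6pc, the pair that completes glucose release, were higher in long-term survivor than in post-transplant livers, and Pcx and Creb3l3 were lower than in pre-transplant livers. Of the 9 genes 2 rose and 1 fell against post-transplant livers, beside 47.4% of all tested genes called, 10.5% higher and 36.9% lower. Against pre-transplant livers 0 rose and 2 fell, beside 34.7% of all tested genes called, 3.85% higher and 30.8% lower. The medians of the 9 genes were 0.34 and -0.17, against -0.16 and -0.17 over all genes. The comparisons share libraries and are given side by side. With the near-identical pairs averaged the counts were again 2 higher and 1 lower against post-transplant and 0 higher and 2 lower against pre-transplant livers.

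Slc37a4 lay at 48.0, 69.5 and 104.03 FPKM in long-term survivor livers, between the other groups in mean, with 71.0 ± 19.7 FPKM in long-term survivor (n = 8), 41.2 ± 17.9 FPKM in post-transplant and 111 ± 37.2 FPKM in pre-transplant livers (SD, n = 11 each). It was 0.84 ± 0.24 (log2) higher than in post-transplant livers (adjusted p = 0.00552), and all 8 libraries were above the post-transplant median. Against pre-transplant livers its change of -0.60 ± 0.24 missed the threshold (adjusted p = 0.0555), although all 8 libraries were below the pre-transplant median. Adjusted p of this change ran from 0.0219, without pre-transplant u2, to 0.111 over all single libraries left out, and it was under 0.05 also without long-term survivor replicate 2 (0.0354) and pre-transplant replicates 1 (0.0250) and 2 (0.0482). G6pc lay at 104.5, 122 and 271 FPKM in long-term survivor livers. It was 1.43 ± 0.44 higher than in post-transplant livers (adjusted p = 0.00914) and was not called against pre-transplant livers (0.32 ± 0.44, 95% interval -0.58 to 1.23, adjusted p = 0.602), where the estimate was -0.02 without u1 and u2.

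Pcx lay at 54.3, 72.5 and 90.2 FPKM in long-term survivor livers, near the post-transplant level. It fell by 0.73 ± 0.20 (log2) against pre-transplant livers (adjusted p = 0.00537), with 7 of 11 pre-transplant libraries above all 8 long-term survivor libraries. Against post-transplant livers it changed by 0.26 ± 0.20 (adjusted p = 0.298). Creb3l3 was the tightest of the 9 genes in this group, at 141.5, 155 and 187 FPKM. It fell by 0.47 ± 0.14 against pre-transplant livers (adjusted p = 0.0130), where 10 of 11 libraries were above every long-term survivor library. It changed by 0.34 ± 0.14 against post-transplant livers (adjusted p = 0.0524), and all 8 libraries were above the post-transplant median. Fbp1 followed the same order, at 315, 409 and 562.5 FPKM in long-term survivor livers, with a change of 0.39 ± 0.17 against post-transplant livers (adjusted p = 0.0567) and -0.06 ± 0.17 against pre-transplant livers (adjusted p = 0.806, and 0.14 after median-of-ratios scaling).

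Markers of cell types differed with these genes here too. The hepatocyte markers summed to 56990, 76260 and 93690 FPKM (lowest, median and highest) in long-term survivor livers, against the 25190, 42050 and 85270 FPKM of post-transplant livers, and 4 of 8 were higher and 1 lower than in post-transplant livers, with a median change of 0.34. The leukocyte markers summed to 54.8, 72.0 and 136 FPKM in long-term survivor livers, against 181.5, 752 and 2271 FPKM in post-transplant livers, and 0 of the 5 tested were higher and 5 lower than in post-transplant livers, with a median change of -3.06. The stellate cell and fibroblast markers summed to 42.6, 53.3 and 64.9 FPKM in long-term survivor livers, against 85.9, 202 and 560 FPKM in post-transplant livers, and 0 of 7 were higher and 6 lower, with a median change of -1.63. Over all tested genes 10.5% were higher and 36.9% lower than in post-transplant livers. Against pre-transplant livers 0 of 8 hepatocyte markers were higher and 1 lower, and 3 of 5 leukocyte markers were higher and 0 lower. Over all tested genes 3.85% were higher and 30.8% lower in that comparison. The part of these cell types in the changes of the 9 genes was not tested.

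These calls depended on the scaling between libraries. After median-of-ratios scaling, which brought the median change of all genes to -0.01 against pre-transplant and 0.01 against post-transplant livers, 0 of the 9 genes were called against pre-transplant livers, with Pcx at -0.53 (adjusted p = 0.0635) and Creb3l3 at -0.26 (adjusted p = 0.220). Under it 4 rose and 0 fell against post-transplant livers: Slc37a4 and G6pc were called as before, and Fbp1 (0.60, adjusted p = 0.00516) and Creb3l3 (0.55, adjusted p = 0.00321) were added. The split of all called genes was then 2573 higher and 2497 lower against post-transplant livers, in place of 1255 higher and 4401 lower, and 985 higher and 1151 lower against pre-transplant livers, in place of 459 higher and 3675 lower. Leaving out post-transplant replicate 4 or 5 also brought the genes called against post-transplant livers to 5, with Fbp1 (0.44 and 0.45) and Creb3l3 (0.40 and 0.37) added.

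Irs2 lay at 2.07, 3.99 and 6.69 FPKM in long-term survivor livers, all 8 libraries below the post-transplant median. It fell by 0.75 ± 0.26 against post-transplant livers (adjusted p = 0.0179), a call that median-of-ratios scaling ended (-0.58, adjusted p = 0.0700). Pck1 had its highest group mean in long-term survivor livers, at 976 ± 296 FPKM (SD, n = 8), with 642, 859 and 1493 FPKM as lowest, median and highest. All 8 libraries were above the post-transplant median and 7 of 8 above the pre-transplant median. Its changes of 0.62 ± 0.36 against post-transplant livers (adjusted p = 0.150) and 0.69 ± 0.36 against pre-transplant livers (adjusted p = 0.134) were not called. Foxo1, at 2.86, 6.12 and 11.8 FPKM, and Ppargc1a, at 0.576, 0.956 and 2.30 FPKM, were not called in either comparison. Their highest values in this group, 11.4 and 11.8 FPKM for Foxo1 and 2.23 and 2.30 FPKM for Ppargc1a, came from replicates 4 and 8, the near-identical libraries.

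**Figure D2:**
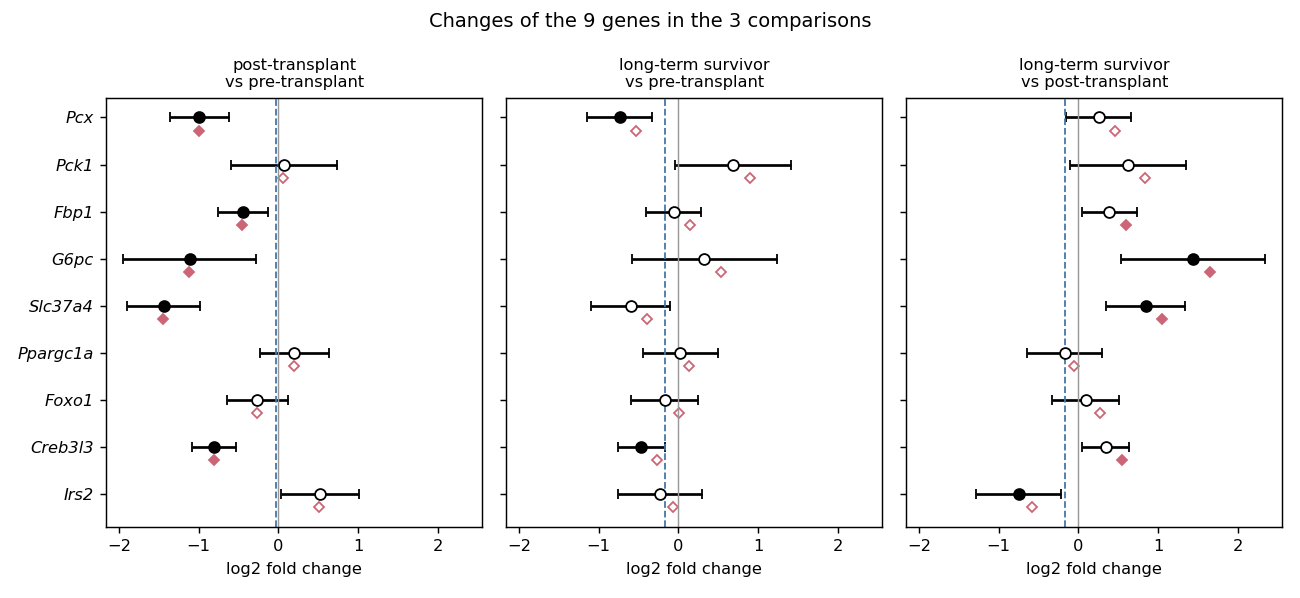
Log2 fold change of the 9 genes (horizontal axes, on the log2(FPKM + 1) scale) in post-transplant against pre-transplant, long-term survivor against pre-transplant and long-term survivor against post-transplant livers. Circles with 95% intervals are the limma estimates, filled where adjusted p was at most 0.05, pink diamonds are the same after median-of-ratios scaling, and the dashed blue line is the median of all tested genes. Slc37a4, G6pc, Pcx, Creb3l3 and Fbp1 lie left of 0 in the first panel, and in the panels with long-term survivor livers the diamonds lie to the right of the circles.

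Other genes of glucose and fasting metabolism, from lists set out by role, were read from the same fit. Their counts stand beside 50.0% of all tested genes called in post- against pre-transplant livers, 26.6% lower and 23.4% higher, with a median of -0.03. Of 19 further genes of gluconeogenic enzymes and carbon shuttles that were tested, 13 fell (68.4%) and 2 rose (10.5%), with a median of -0.71. Gpt2, which makes pyruvate from alanine, averaged 23.2 ± 13.4 FPKM in post-transplant and 59.1 ± 8.04 FPKM in pre-transplant livers (log2 -1.51 ± 0.23, adjusted p = 5.50e-06). Mpc1, a subunit of the mitochondrial pyruvate carrier, and Mdh2, the mitochondrial malate dehydrogenase, fell by 0.94 ± 0.13 and 0.86 ± 0.13. Ldhb, a lactate dehydrogenase subunit, and G6pc3, a phosphatase related to G6pc and expressed in most tissues, were the 2 that rose, by 1.33 ± 0.22 and 0.47 ± 0.14. These last were named after their values were seen. Pck2, the mitochondrial counterpart of Pck1, was not called (-0.16 ± 0.24, adjusted p = 0.609).

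Of 15 genes of glucose uptake, glycogen and enzymes opposing gluconeogenesis, 13 fell (86.7%) and 1 rose in post-transplant livers, with a median of -0.96. Khk, the fructose kinase, averaged 81.0 ± 44.4 FPKM in post-transplant and 230 ± 69.9 FPKM in pre-transplant livers (-1.60 ± 0.25, adjusted p = 4.67e-06). Gbe1, the branching enzyme of glycogen, fell by 1.34 ± 0.22, and Pgm2 rose by 0.79 ± 0.13.

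Of 17 genes of insulin signalling 2 rose and 6 fell (median -0.17), so that 47.1% were called, near the 50.0% of all tested genes. Akt1, a kinase downstream of the insulin receptor, averaged 41.9 ± 3.83 FPKM in post-transplant and 26.9 ± 2.82 FPKM in pre-transplant livers (0.62 ± 0.07, adjusted p = 2.92e-08). Grb10, an adaptor that dampens insulin receptor signalling, rose by 0.64 ± 0.11, while Irs1, the sister gene of Irs2, and Grb14 fell by 0.60 ± 0.13 and 0.51 ± 0.10. Grb10 was scarce, with means of 1.35 FPKM in post-transplant and 0.497 FPKM in pre-transplant livers. Of 23 regulators of glucagon, cAMP and glucocorticoid action 3 rose and 5 fell (median -0.13), 34.8% called. Prkaca, a catalytic subunit of protein kinase A, fell by 0.50 ± 0.11 and Prkar1a, a regulatory subunit that holds the kinase inactive, rose by 0.30 ± 0.07. Cebpa and Ppara, transcription factors of hepatocyte metabolism and of the fasting use of fat, fell by 0.97 ± 0.21 and 0.98 ± 0.28.

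Of 20 fasting genes and FOXO1 targets 3 rose and 5 fell (median -0.23), so that 40.0% were called, below the share of all tested genes. Fgf21, a fasting hormone, averaged 13.6 ± 7.16 FPKM in post-transplant and 58.1 ± 73.4 FPKM in pre-transplant livers (-1.59 ± 0.41, adjusted p = 0.00193). Apoc3, an apolipoprotein that FOXO1 activates, fell by 1.25 ± 0.31, and Acot1 rose by 0.70 ± 0.20. Acot1 was scarce, with means of 1.38 FPKM in post-transplant and 0.433 FPKM in pre-transplant livers. Of 10 targets of CREB3L3 known from mouse, 6 fell (60.0%) and 0 rose (median -1.12), beside the fall of Creb3l3 itself. Apoc2 and Apoa4 fell by 1.65 ± 0.24 and 2.25 ± 0.52 and the fatty acid desaturase Fads1 by 1.50 ± 0.39, while Crp, Apoa5, Cidec and Hamp were not called.

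In the liver lobule gluconeogenesis lies mainly on the periportal side. Of 10 periportal genes, 5 fell and 0 rose (median -0.50), and of 9 pericentral genes 3 fell and 1 rose (median -0.31). These are 50.0% and 44.4% called, close to the 50.0% of all tested genes. The shares lower were 50.0% and 33.3%, beside 26.6% of all tested genes, and no difference between the zones was tested. Among the periportal genes were Cyp2f4 and Hal at -1.73 ± 0.19 and -0.86 ± 0.25, and Cps1, the entry enzyme of the urea cycle, at -0.67 ± 0.25. Of the pericentral genes, Cyp2e1 averaged 360 ± 254 FPKM in post-transplant and 1507 ± 764 FPKM in pre-transplant livers (-2.21 ± 0.30), Oat and Axin2 fell by 1.17 ± 0.40 and 0.54 ± 0.11, and Glul, the glutamine synthetase of the last row of hepatocytes, rose by 0.65 ± 0.19.

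**Figure D3:**
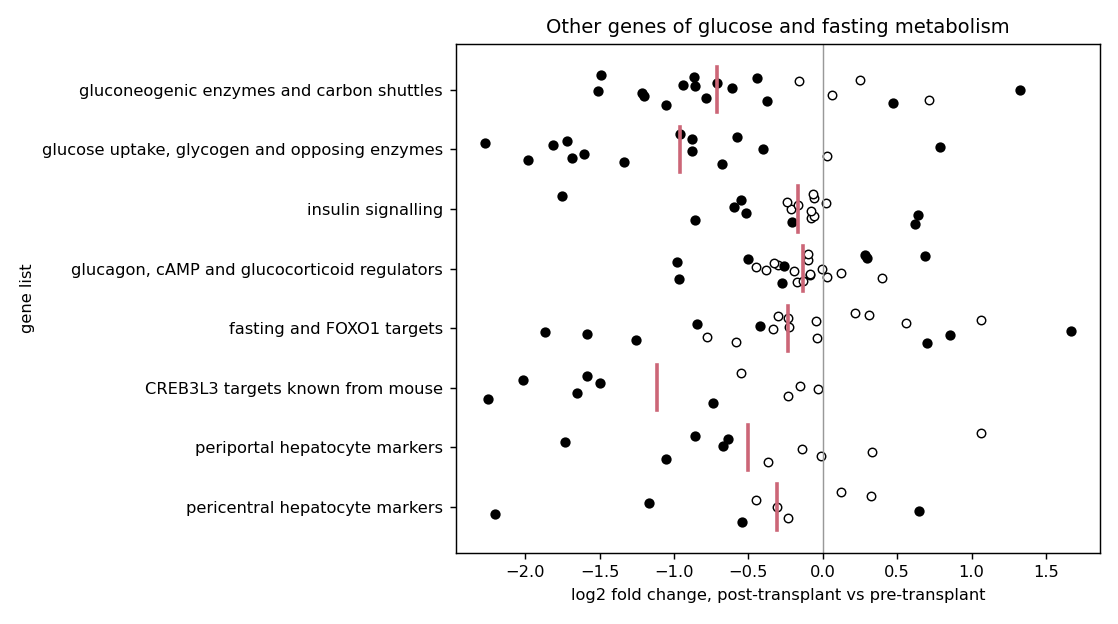
Log2 fold change in post-transplant against pre-transplant livers (horizontal axis) of the tested genes of 8 lists (vertical axis). Each circle is a gene, filled where limma's adjusted p was at most 0.05, and the pink bar is the median of the list. The lists of gluconeogenic enzymes, of glucose uptake and glycogen and of CREB3L3 targets have their medians farthest to the left, at -0.71, -0.96 and -1.12.

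On the deposited scaling, long-term survivor livers had, against pre-transplant livers, 1 of the 19 gluconeogenic and shuttle genes higher and 7 lower (median -0.46), and 0 of the 15 genes of glucose uptake and glycogen higher and 8 lower (median -0.56). These are 36.8% and 53.3% lower, beside 30.8% of all tested genes. After median-of-ratios scaling, an alternative chosen for these lists after seeing the data, the counts against pre-transplant livers were 1 higher and 4 lower, and 0 higher and 1 lower, beside 8.26% of all tested genes higher and 9.65% lower. Against post-transplant livers the counts were 6 higher and 2 lower (median 0.17) and 5 higher and 1 lower (median 0.57) on the deposited scaling, beside 10.5% of all tested genes higher and 36.9% lower. After median-of-ratios scaling they were 8 higher and 0 lower, and 8 higher and 1 lower, beside 21.6% higher and 20.9% lower. Of the 10 CREB3L3 targets 2 were higher and 1 lower than in post-transplant livers on the deposited scaling, and 5 and 0 after median-of-ratios scaling. Gpt2 was 0.92 higher than in post-transplant livers (adjusted p = 0.00419), and Fgf21 averaged 5.72 FPKM in long-term survivor livers, lower than in post-transplant (-1.23, adjusted p = 0.0237) and pre-transplant livers (-2.82, adjusted p = 3.06e-05).

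Across the 30 libraries with group means removed, the 4 enzymes, Slc37a4 and Creb3l3 correlated with each other at 0.34 to 0.81, and Ppargc1a, Foxo1 and Irs2 correlated with those 6 at -0.05 to 0.40. These correlations share libraries and scaling and are a description. Pcx and Slc37a4 had a Pearson r of 0.81, the highest of the 36 pairs, followed by G6pc with Creb3l3 (0.72), Pcx with Creb3l3 (0.72), Slc37a4 with Creb3l3 (0.70), Pck1 with G6pc (0.68) and G6pc with Slc37a4 (0.67). Pck1, whose group means hardly differed between post- and pre-transplant livers, had an r of 0.63 with Creb3l3. Ppargc1a had its highest r with Foxo1 (0.46) and Irs2 (0.38), and -0.03 with G6pc and 0.11 with Pck1. Irs2 was at -0.05 with Slc37a4, the lowest of all pairs, and at 0.00 with Pcx and Foxo1.

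**Figure D4:**
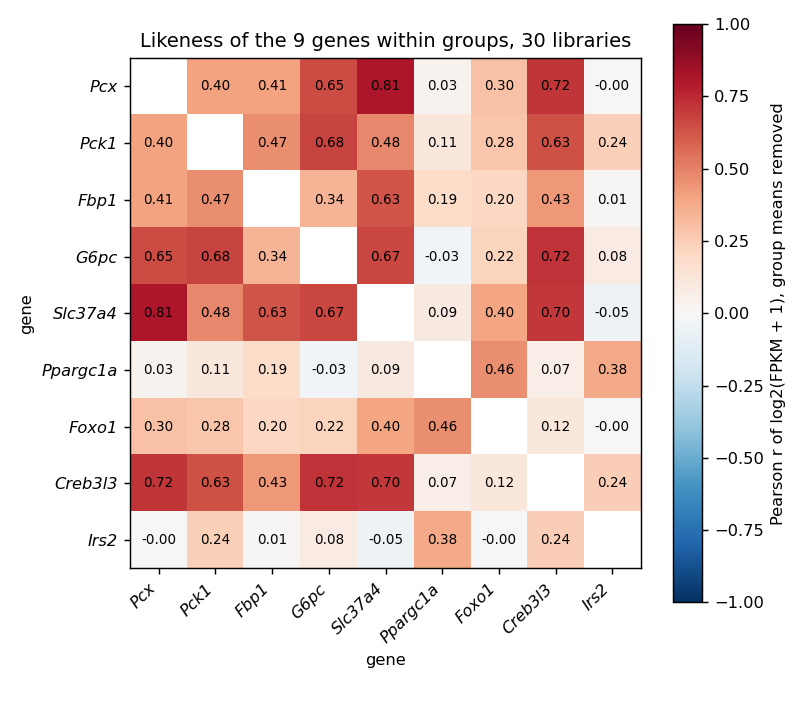
Pearson r between the 9 genes (rows and columns in the same order) over 30 libraries after removing the group means of log2(FPKM + 1), on a colour scale from -1 to 1. The darkest squares join Pcx, G6pc, Slc37a4 and Creb3l3, up to 0.81 for Pcx with Slc37a4, and the columns of Ppargc1a and Irs2 stay at or below 0.46.

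By the same measure, the 3 genes with a pattern most like Slc37a4 were Cyp2d5, Plekhb1 and Serpina4 (r = 0.91, 0.91 and 0.89). Those of Creb3l3 were Gde1, Fcgrt and Fbxw2 (0.87, 0.85 and 0.84), and those of Pcx were Enpp2, Apof and Cyp39a1 (0.85, 0.85 and 0.84). Fbp1 was most like Aldh7a1, Fetub and Mgst1 (0.86, 0.85 and 0.85) and G6pc most like Lrpap1, Plpp3 and Fcgrt (0.76, 0.76 and 0.75). Fcgrt, the Fc receptor that recycles antibodies and albumin, thus stood on the lists of both G6pc and Creb3l3. Pck1 was most like Gpr146, Tob1 and Dcaf6 (0.76, 0.76 and 0.73), and Foxo1 most like Zcchc14, Usf3 and AABR07031756.2 (0.85, 0.82 and 0.81). The genes most like Irs2 were Adipor1, an adiponectin receptor, Glul and Ctsl (0.71, 0.71 and 0.68), and those most like Ppargc1a were AABR07053152.1, Ahr and Chd7 (0.69, 0.68 and 0.66).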

How the data were processed

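Polyadenylated RNA of rat livers was sequenced. The submitters' processing notes list HISAT2 2.0.5, and as builds mm10 and Rnor_6.0 without a role. The counting program is not given in the sources used here. The authors deposited 1 table, whose values are FPKM as worked out from the values, with gene length in bases per the file headers. FPKM times length came out as whole multiples of 1 read for 100% of values up to 5000 reads (tolerance 0.02), which gave the reads per library.

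Columns were tied to samples by header. Of 32 columns 2 under a repeated post-transplant header were not used, and 2 under a repeated pre-transplant header were used as u1 and u2. Of the Ensembl genes 2799 share a symbol.

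The test was limma 3.58.1 in R 4.3.3 (empirical Bayes, trend and robust, two-sided) on log2(FPKM + 1), 3 groups in 1 fit, 11924 genes (1 FPKM or more in 8 or more libraries), Benjamini-Hochberg, threshold 0.05. The log scale understates changes of low genes. Alternatives were median-of-ratios and quantile scaling, 0.1 as pseudocount, no filter, only the groups compared, voom on recovered reads, array weights, averaged long-term survivor pairs, leaving out u1 and u2, title block as a term, and leaving out each library. The fit was tested on simulated data. Intervals cover the spread between libraries. Named were the 9 genes, up to 4 genes per list with the smallest adjusted p in post- against pre-transplant livers, and the 3 genes most like each of the 9. Some genes that this rule names are not reported here. The 9 genes and the lists were chosen with earlier results of these data known.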

Additional observations from a re-analysis of the deposited data

Results flagged for a closer look

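In the 8 long-term survivor libraries, 9 sets of values were examined for a library far from the rest, and 2 were found, where chance gives about 1 in 20. Fbp1 in replicate 1 stood at 562.5 FPKM, against a group median of 409 FPKM. Irs2 in replicate 6 stood at 6.69 FPKM, against a group median of 3.99 FPKM. In each case the gap to the nearest library, divided by the range of the group, was above the critical value of 0.526 for 8 values. These gaps were 0.58 for Fbp1 and 0.531 for Irs2 of the range. With the near-identical replicates 3 and 7, and 4 and 8, averaged, they were 0.581 and 0.551, under the critical value of 0.625 for 6 values, so neither library stood out then.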

How the results depend on the processing

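Over the alternatives, 744 values of the 9 genes kept their direction and side of the threshold, 31 passed it newly, 17 no longer passed it and 27 changed sign, and of the counts 169 stayed within 1.5 times and 13 did not. The causes were not tested. Genes called in long-term survivor against pre-transplant livers numbered 4134, and 2136 with median-of-ratios scaling, 1973 with quantile normalization, 1984 with voom and 1211 with median-of-ratios scaling and averaged pairs, chosen after seeing the data; under each of these 0 of the 9 genes were called. Post- against pre-transplant, 3 of the 9 were called after quantile normalization. Against post-transplant livers 6 were called with array weights and 5 without u1 and u2. Leaving out 1 library gave 4 to 6 of the 9 genes in post- against pre-transplant livers, 3 to 5 in long-term survivor against post-transplant and 2 to 3 against pre-transplant livers.

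Changes of sign were all among values that were not called. For Pck1 post- against pre-transplant, the value was -0.24 with array weights, -0.28 without u1 and u2, -0.0358 with the title block and -0.21 to 0.20 with 1 library left out; for Ppargc1a it was -0.0018 after quantile normalization. Against pre-transplant livers, long-term survivor values of Fbp1 were 0.14 (median-of-ratios), 0.21 (quantile), 0.15 (voom) and 0.16 (median-of-ratios with averaged pairs), those of Foxo1 0.0035, 0.0022 and 0.0029 under the first 3 of these, that of G6pc -0.0166 without u1 and u2, and those of Ppargc1a -0.0138 with averaged pairs and -0.0646 to 0.0879 with 1 library left out. Against post-transplant livers, Ppargc1a was at 0.0671 (quantile), 0.0354 (array weights) and -0.26 to 0.0071 with 1 library left out, and Foxo1 at -0.0217 to 0.23 with 1 library left out.

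No paired analysis was possible because no label ties libraries of different groups to the same graft or animal. Depth limits Ppargc1a most, with 18 to 259 reads per library.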

Other observations

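Bile duct markers had another pattern over the groups than the genes above. The 6 markers summed to 19.9, 45.6 and 134.8 FPKM (lowest, median and highest) in long-term survivor, 20.1, 28.8 and 69.6 FPKM in post-transplant and 7.55, 12.1 and 37.1 FPKM in pre-transplant livers. In long-term survivor livers the 2 highest sums, 131.2 and 134.8 FPKM, came from the near-identical replicates 3 and 7. The values around the median, 45.7 and 45.4 FPKM, came from replicates 4 and 8. All 5 markers that were tested were higher in long-term survivor than in pre-transplant livers, and 4 of 5 were higher than in post-transplant livers. In post- against pre-transplant livers 3 of 5 were higher. Over all tested genes 3.85%, 10.5% and 23.4% were higher in these 3 comparisons. Kupffer cell markers, 4 matched of 5, summed to 202 FPKM at the median in long-term survivor, 484 FPKM in post-transplant and 154 FPKM in pre-transplant livers. Of the 4, 3 were called higher in post- than in pre-transplant livers, beside 23.4% of all tested genes. Of 5 endothelial markers, 3 were lower in long-term survivor than in pre-transplant livers. Over all tested genes 30.8% were lower in that comparison, and 9.65% after median-of-ratios scaling. The 5 adipocyte markers summed to 20.2 FPKM at the median in long-term survivor, 23.1 FPKM in post-transplant and 14.1 FPKM in pre-transplant livers. Plin1 and Lep had a median of 0 FPKM in every group. Cidea and Cfd, the 2 that were tested, were both called higher in post- than in pre-transplant livers (0.82 and 0.66), beside 23.4% of all tested genes.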
